A study of Mus musculus with 2 samples.

Results

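Antiviral effector genes are the genes that a cell switches on when it senses interferon and whose proteins act on viral RNA, viral assembly or viral entry. Interferons bind receptors on the cell surface, the receptor-bound kinases activate transcription factors, and for type I interferon these form a complex with IRF9 that binds the interferon-stimulated response element in front of the effector genes. Type II interferon acts mainly through a different element, the gamma-activated site. In tumours the same genes are used as a readout of interferon signalling in the absence of any virus. The genes described here were taken by name from a list of 38 and split by family into IFIT, OAS, MX, PARP, TRIM and IFITM, with an ISG15 pathway group and the remaining effectors placed by role. Of the 38, 37 were among the 12707 genes of the deposited table, and Oasl1 was not analysed here.

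The libraries came from tumours grown from Py8119, a mesenchymal-like mammary cancer line of the mouse that was established from a cancer driven by the polyoma middle T transgene. One library came from tumours in hosts with Mtdh knocked out (KO host) and the other from tumours in hosts with wild-type Mtdh (WT host). The injected tumour cells carried wild-type Mtdh in both, so only the host differed in the labels. Live cells negative for CD45, the surface protein shared by leukocytes, were sorted and their RNA was sequenced in bulk after removal of ribosomal RNA. The sources used here do not give how the knockout was made, the age of the hosts or the number of tumours pooled in each library. Each host has 1 library and so no replicate. A test between the hosts was therefore not possible, and every ratio describes these 2 libraries.

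The libraries held 23381824 recovered reads for the KO host and 26069349 for the WT host. Mtdh itself had 23130 reads in the KO-host library and 28376 in the WT-host library, and since the tumour cells carry the gene in both, this level does not check the host genotype. All 7 markers of mesenchymal tumour cells, such as Vim, were listed, with a summed level of 9402 reads per 1000000 recovered reads (RPM) in the KO-host library and 10385 in the WT-host library, and none differed by 2-fold. Pan-leukocyte markers (8 of 9 listed) summed to 23.1 RPM in the KO-host library and 20.3 in the WT-host library, and Ptprc, which encodes CD45, had 64 and 46 reads in the same order. Macrophage markers (10 of 10 listed) summed to 224.4 RPM for the KO host and 186.8 for the WT host. Lyz2 holds most of that sum, at 148.4 and 134.4 RPM in the same order. Of the 10, 8 were above a ratio of 1 and 2 below it, where 46.4% of all listed genes with 10 or more reads were above it. Among the 8, Adgre1, Csf1r and Lyz2 lay near 1, at 1.09, 1.10 and 1.10. Mpeg1 had 952 reads in the KO-host library and 378 in the WT-host library, and Cd68 had 70 and 33. Cd14 had 257 reads for the KO host and 453 for the WT host. T and NK cell markers (2 of 10 listed) summed to 2.31 RPM for the KO host and 0.988 for the WT host. They went opposite ways, since Cd8a had 53 reads in the KO-host library and 6.8 in the WT-host library, while Cd4 had 1 and 19. The 1 listed B cell marker of 5, Ms4a1, had 42.8 reads for the KO host and 2.1 for the WT host. Of 7 dendritic cell markers 2 were listed, Ccr9 with 3.0 and 47 reads in the same order and Xcr1 with 50.2 and 35. Neutrophil markers (3 of 6 listed) were at 6.46 RPM in the KO-host library and 10.2 in the WT-host library, and endothelial markers (4 of 8 listed) at 14.5 and 18.5. The endothelial sum hides opposite differences, since Cdh5 had 146 reads in the KO-host library and 1 in the WT-host library, while Plvap had 58 and 348. Fibroblast markers (6 of 7 listed) summed to 797.5 RPM for the KO host and 2010 for the WT host, and pericyte and smooth muscle markers (3 of 6 listed) to 83.0 and 387.1. Col1a1 and Col3a1 hold most of the fibroblast reads, and within that list Pdgfra had a ratio of 0.966 while Pdpn had 296 reads in the KO-host library and 5 in the WT-host library. Epithelial markers (6 of 8 listed) summed to 333.4 RPM in the KO-host library and 206.0 in the WT-host library. The part of these other cells in the results below was not tested, and in bulk RNA fewer cells of a type and less RNA per cell cannot be told apart.

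The short sequences below are shown because they hold matches to the core of that response element in front of effectors whose reads follow. They are stretches upstream of RefSeq transcription starts on the mouse build GRCm38.p6, written 5′ to 3′ on the strand of the gene, with each match to the core of the interferon-stimulated response element in capitals. The core searched was GAAANNGAAA, on both strands, so that a match on the opposite strand reads as runs of T ending in C. Overlapping matches run together into 1 longer stretch of capitals.
Isg15: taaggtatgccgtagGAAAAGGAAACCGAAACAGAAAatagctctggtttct
Ifit1: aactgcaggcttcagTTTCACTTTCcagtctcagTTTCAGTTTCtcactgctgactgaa
Ifit3: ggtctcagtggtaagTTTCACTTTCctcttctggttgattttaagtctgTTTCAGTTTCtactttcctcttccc
Ifit3b: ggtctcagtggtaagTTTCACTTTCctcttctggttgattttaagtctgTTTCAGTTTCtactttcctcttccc
Oas1a: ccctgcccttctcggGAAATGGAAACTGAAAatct
Oas1g: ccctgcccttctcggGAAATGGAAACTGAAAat
Oas3: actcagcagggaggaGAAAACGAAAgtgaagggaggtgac
Rsad2: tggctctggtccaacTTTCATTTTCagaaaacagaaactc
Bst2: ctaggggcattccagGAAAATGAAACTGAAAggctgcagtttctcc
Ddx60: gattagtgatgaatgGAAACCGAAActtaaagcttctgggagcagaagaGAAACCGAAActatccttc
Trim30a: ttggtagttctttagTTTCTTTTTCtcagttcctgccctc
Ifitm2: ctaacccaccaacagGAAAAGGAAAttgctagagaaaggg
The Isg15 stretch lies at chr4:156200860-156200911 on the minus strand and holds 3 overlapping matches, the most in any of these genes. The Ifit1 stretch lies at chr19:34640770-34640828 on the plus strand, and the Bst2 stretch at chr8:71537572-71537617 on the minus strand. The Ifit3 stretch, at chr19:34583358-34583431, and the Ifit3b stretch, at chr19:34607754-34607827, have 74 bases each and did not differ at any base. The Oas1a stretch, at chr5:120907526-120907560, and the Oas1g stretch, at chr5:120887614-120887646, likewise held 0 differing bases over the 33 compared. The other stretches lie at chr5:120777710-120777749 for Oas3, chr12:26456548-26456587 for Rsad2, chr8:61928019-61928086 for Ddx60, chr7:104465205-104465244 for Trim30a and chr7:140955983-140956022 for Ifitm2.

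Most of the antiviral effectors had more RPM in the KO-host library. Of the 37 genes, 29 were above a ratio of 1 and 8 below it, where 46.4% of all listed genes with 10 or more reads over both libraries were above it. Of the 8, Ifit3b and Ifitm2 lay above 1 once ratios were centred on the median of all genes. The summed level of the 37 was 1239 RPM in the KO-host library and 864 RPM in the WT-host library. By 2-fold, 18 of the 37 were higher and 3 were lower, beside 11.2% higher and 13.2% lower among all listed genes with 10 or more reads. A size rule of 2-fold was used among genes with 100 or more reads over both libraries, which 32 of the 37 passed. Of those 32, 16 were higher in the KO-host library, 1 was lower and 15 lay between, where 8.4% of all 10652 genes passing were higher and 11.3% lower. The median log2 ratio of the 32 was 0.99, and that of all genes passing was −0.06. Mx1, Oas2, Ifit3 and Irf7 had under 50 reads in 1 of the libraries. Mx1 and Oas2 passed through the KO-host library alone, and Ifit3 and Irf7 on a sum that came mostly from the library where they were higher. With 50 or more reads asked of each library, which leaves these genes out, 13 of 28 were higher and 0 lower, with a median of 0.88. This filter was chosen after the data were seen, and the shares of all genes under it were not computed. The counting intervals of Isg15, Ifit1, Ifit3, Oas3 and Xaf1 reached below 2-fold.

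The counts differed with depth. Among the 14 effectors with 1000 or more reads, 4 were 2-fold higher (Ifi44, Usp18, Parp14 and Ifit1) and 0 lower, where 2.84% of all genes of that depth were higher and 3.92% lower. Their median log2 ratio was 0.52. Among the 18 with 100 or more and under 1000 reads, 12 were higher and 1 lower, with a median of 1.23, where 17.5% of all genes of that depth were higher and 23.4% lower. The remaining 5, Cmpk2, Ifitm1, Mx2, Oas1a and Oas1g, had 10 or more and under 100 reads. At that depth 38.7% of all genes were 2-fold higher and 31.9% lower, so their ratios say little beyond the reads themselves.

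**Figure D1:**
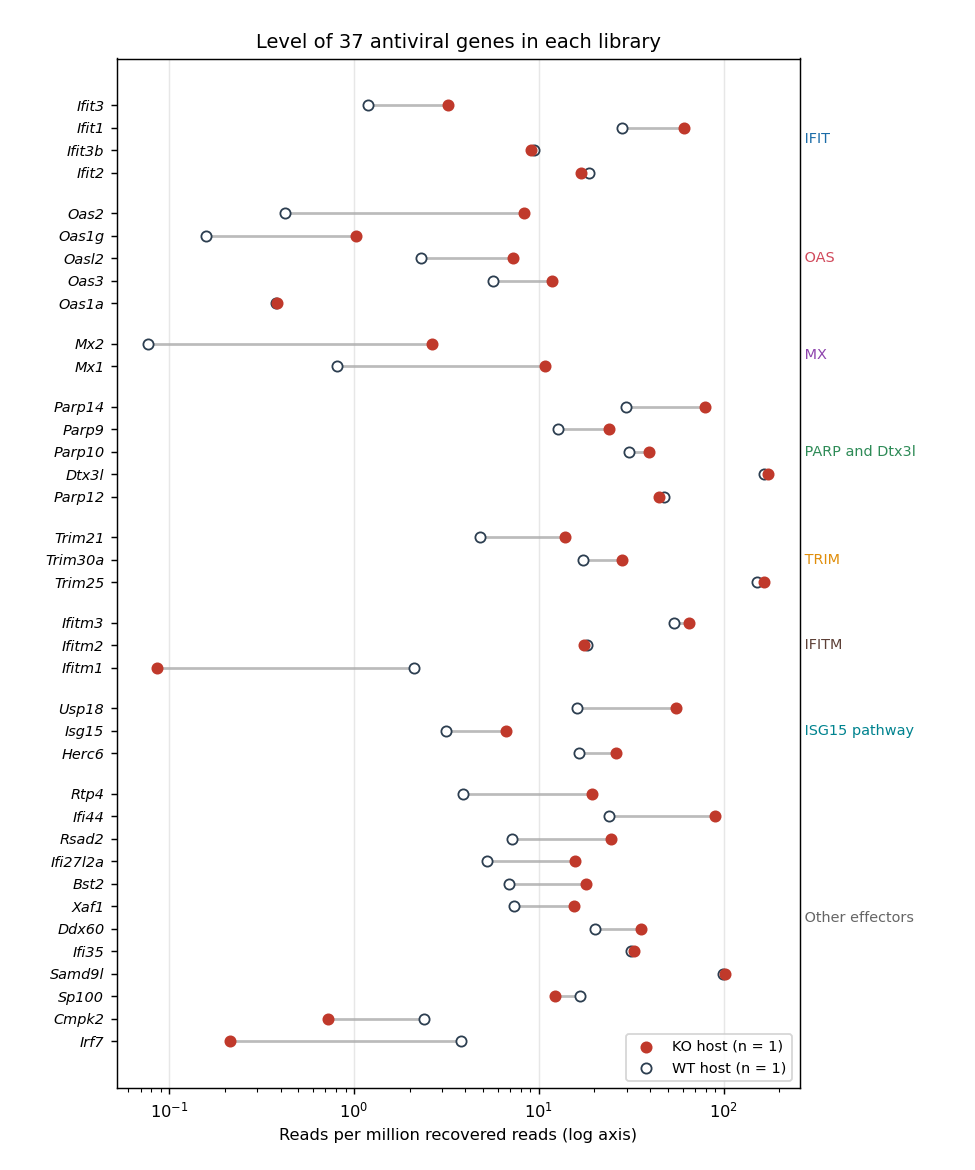
Level of each of the 37 antiviral genes in RPM (horizontal log axis), with filled circles for the KO-host library and open circles for the WT-host library (n = 1 each), ordered within families by ratio. Ifi44 lies at 89.4 RPM in the KO-host library and 23.9 in the WT-host library, while the highest genes, Dtx3l and Trim25, have nearly coincident circles.

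**Figure D2:**
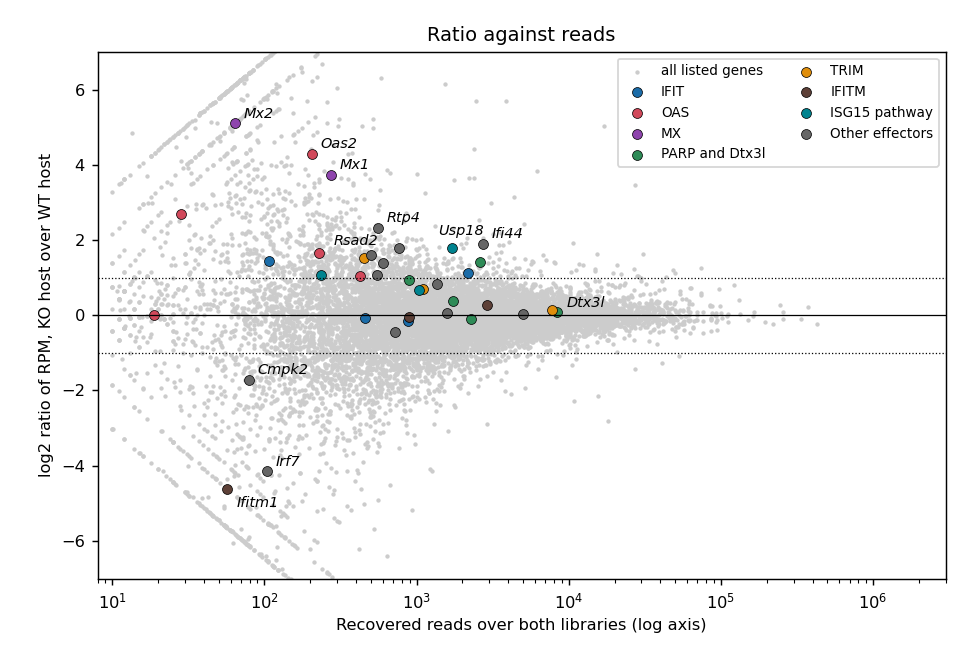
Log2 ratio of RPM, KO host over WT host, against the recovered reads over both libraries (log axis), with all listed genes in grey and the antiviral genes coloured by family. Dotted lines mark 2-fold, and a few grey points beyond the vertical range are not drawn. The grey cloud widens towards few reads, where Mx2, Ifitm1, Irf7 and Oas2 lie, and narrows to the right, where Dtx3l sits near 0.

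The ISG15 pathway attaches a small ubiquitin-like protein to other proteins and takes it off again. Isg15, which encodes that protein, had 155 reads in the KO-host library and 82 in the WT-host library, a ratio of 2.11 (95% counting interval 1.60 to 2.79). Usp18, the protease that removes ISG15 and that also dampens signalling at the type I interferon receptor, had 1297 reads for the KO host and 417 for the WT host, a ratio of 3.47 (3.10 to 3.88). Herc6, the main ISG15 ligase in the mouse, had 610 reads in the KO-host library and 428 in the WT-host library, a ratio of 1.59 (1.40 to 1.80), below 2-fold. All 3 were higher in the KO-host library, where 46.4% of all listed genes with 10 or more reads were higher by any amount. Together the 3 summed to 88.2 RPM in the KO-host library and 35.6 RPM in the WT-host library. These intervals were computed from the reads by the exact method of Clopper and Pearson. They cover counting error only, since reads copied by PCR are not independent molecules, and they hold nothing of the spread between animals.

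The IFIT genes, whose proteins bind viral RNA through tetratricopeptide repeats, gave a mixed picture within 1 gene cluster. They sit on the plus strand of chromosome 19 between 34528094 and 34627410 (mm39, the build of the files). Ifit1, which binds RNA whose cap lacks ribose methylation, had 1434 reads in the KO-host library and 739 in the WT-host library, a ratio of 2.16 (1.98 to 2.37). Ifit2, which shares the cluster, had 395 reads for the KO host and 487 for the WT host, a ratio of 0.904 (0.790 to 1.04). The interval of Ifit2 holds 1, so a difference was not detectable at this depth. Ifit3, a binding partner of IFIT1 in human cells, had 75.6 reads in the KO-host library and 31.1 in the WT-host library, a ratio of 2.71 (1.78 to 4.30). Its near-identical copy Ifit3b had 212.4 reads for the KO host and 246.9 for the WT host, a ratio of 0.959 (0.793 to 1.15). The fractional reads show that the authors' counting shared reads between the copies, so their separate values are uncertain. Summed, Ifit3 and Ifit3b had 288 reads in the KO-host library and 278 in the WT-host library, a ratio of 1.16 (0.976 to 1.37), so the sum did not reach 2-fold. The sequences of the Ifit3 and Ifit3b stretches printed above are the same.

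The OAS proteins detect double-stranded RNA and make oligoadenylates that trigger the decay of RNA. Oas2 had 194 reads in the KO-host library and 11 in the WT-host library, a ratio of 19.7 (10.7 to 40.0), the largest among the genes with 100 or more reads. Oas3, the longest of these enzymes, had 274 reads for the KO host and 148 for the WT host, a ratio of 2.06 (1.68 to 2.54). Oasl2, an OAS-like gene, had 169 reads in the KO-host library and 60 in the WT-host library, a ratio of 3.14 (2.33 to 4.29). All 3 were thus 2-fold higher in the KO-host library, though their depth was low. Among all genes with 100 or more and under 1000 reads, 17.5% were 2-fold higher and 23.4% lower. Oas2 passed the read filter through the KO-host library, and the interval of Oas3 reached below 2-fold. The close copies Oas1a and Oas1g carried few reads. Oas1a had 8.9 reads in the KO-host library and 9.9 in the WT-host library, and Oas1g had 24.1 and 4.1 in the same order. Their reads were fractions, shared between copies, and the sum was 33 reads for the KO host and 14 for the WT host, a ratio of 2.63 (1.37 to 5.32). Oas2, Oas3, Oas1g and Oas1a lie on the minus strand of chromosome 5 between 120868398 and 121045585.

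The MX proteins are dynamin-like GTPases that trap viral nucleoproteins. Mx1, the nuclear form in the mouse, had 251.2 reads in the KO-host library and 21 in the WT-host library, a ratio of 13.3 (8.53 to 21.9). Mx2, the cytoplasmic form, had 61.8 reads for the KO host and 2 for the WT host, a ratio of 34.4 with an interval of 9.17 to 292. Both had few reads in the WT-host library, where the reads were whole. In the KO-host library they were fractions, 251.23 for Mx1 and 61.77 for Mx2, that make a whole number together. Some reads there were thus shared between Mx1 and Mx2, so their separate values are uncertain. The genes lie next to each other on chromosome 16 between 97248235 and 97362101.

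The PARP members transfer ADP-ribose to proteins, and Dtx3l is the ubiquitin ligase that pairs with PARP9. Parp14, a mono-ADP-ribosyltransferase, had 1851 reads in the KO-host library and 768 in the WT-host library, a ratio of 2.69 (2.47 to 2.93). Parp9 had 562 reads for the KO host and 330 for the WT host, a ratio of 1.90 (1.65 to 2.18). Parp10 had 928 reads for the KO host and 803 for the WT host, a ratio of 1.29 (1.17 to 1.42). Only Parp14 of this group passed 2-fold, where 8.4% of all genes with 100 or more reads were 2-fold higher. Parp12 had 1044 reads in the KO-host library and 1241 in the WT-host library, a ratio of 0.938 (0.863 to 1.02). Dtx3l had 4087 reads for the KO host and 4304 for the WT host, a ratio of 1.06 (1.01 to 1.11), the most reads of the 37 antiviral genes. The intervals of Parp9 and Dtx3l do not meet, and their spans overlap by 683 bases on opposite strands. The sources used here do not give the strand handling, so reads in that overlap cannot be told apart. Parp10 likewise overlaps Plec in the file, and the part of Plec in its reads was not tested.

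The TRIM genes encode ubiquitin ligases. Trim21, a receptor for antibody-coated virus inside the cell, had 325 reads in the KO-host library and 125 in the WT-host library, a ratio of 2.90 (2.35 to 3.59). Trim30a, a mouse regulator of NF-kB signalling, had 656 reads for the KO host and 452 for the WT host, a ratio of 1.62 (1.43 to 1.83). Trim25, which acts on the RNA sensor RIG-I, had 3858 reads in the KO-host library and 3934 in the WT-host library, a ratio of 1.09 (1.05 to 1.14). The order of the ratios ran against the order of the reads, from Trim21 with the fewest to Trim25 with the most.

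The IFITM proteins sit in membranes and hinder the fusion of enveloped viruses. Ifitm3, the endosomal member, had 1514 reads in the KO-host library and 1401 in the WT-host library, a ratio of 1.21 (1.12 to 1.30). Ifitm2 had 412 reads for the KO host and 473 for the WT host, a ratio of 0.971 (0.849 to 1.11). Neither came near 2-fold. Ifitm1, found mainly at the cell surface, had 2 reads in the KO-host library and 55 in the WT-host library, 24.7-fold lower with an interval of 6.51 to 209. The 3 genes lie on chromosome 7 between 140534750 and 140590684.

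**Figure D3:**
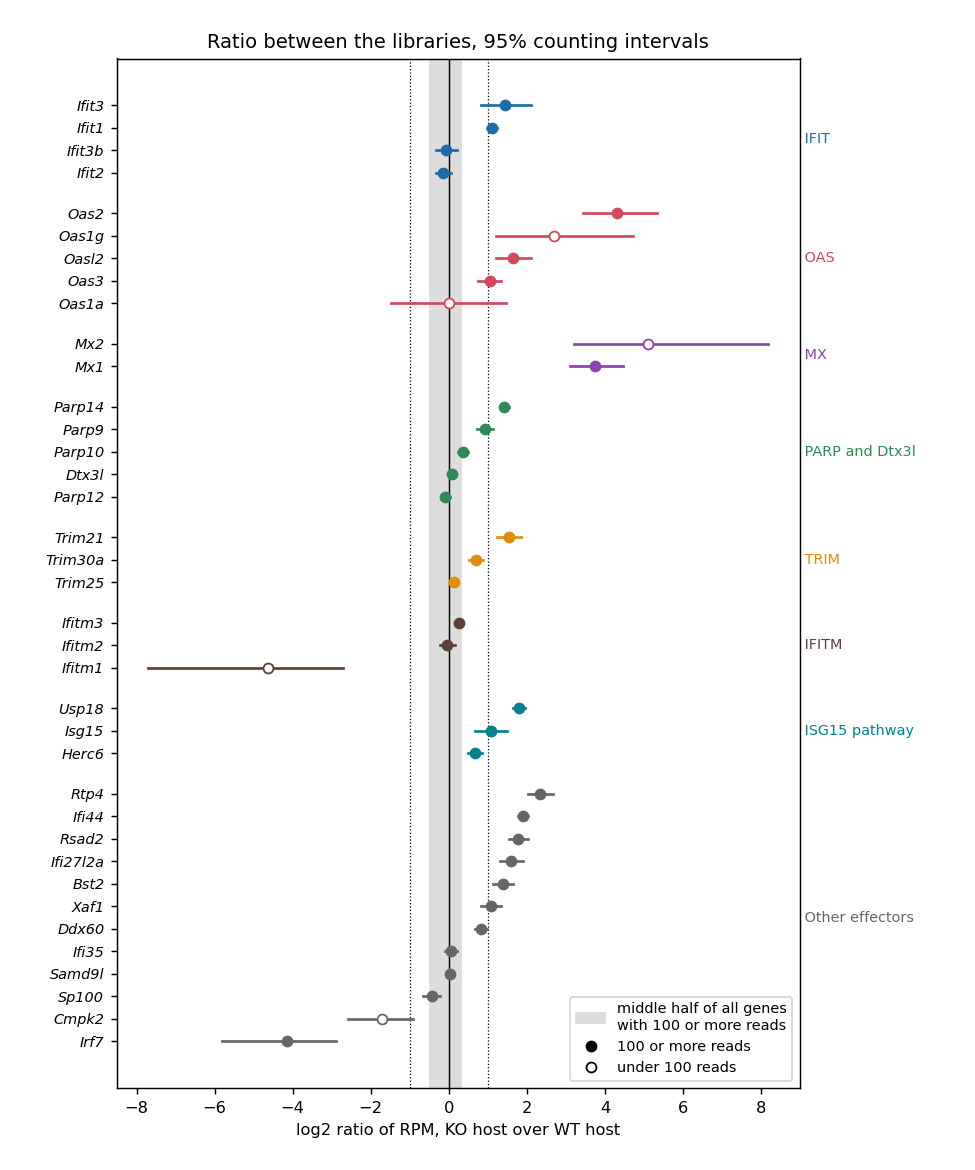
Log2 ratio of RPM, KO host over WT host, for each of the 37 antiviral genes, with horizontal bars for the 95% counting interval, filled circles for 100 or more reads and open circles for fewer. The grey band spans the quartiles of all genes with 100 or more reads (−0.47 to 0.32) and dotted lines mark 2-fold. The OAS, MX and ISG15 pathway genes lie at or right of 0, while Irf7, Ifitm1 and Cmpk2 lie left of the 2-fold line.

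Among the remaining effectors, 6 of the 11 with 100 or more reads were 2-fold higher in the KO-host library and 1, Irf7, was lower, where 8.4% of all genes of that depth were higher and 11.3% lower. The share that was lower is near that of all genes. Ifi44, a cytoplasmic interferon-induced protein, had 2091 reads in the KO-host library and 624 in the WT-host library, a ratio of 3.74 (3.42 to 4.09). Rsad2, which encodes viperin and makes a chain-terminating nucleotide, had 575 reads for the KO host and 187 for the WT host, a ratio of 3.43 (2.90 to 4.07). Bst2, or tetherin, which holds budding virions at the cell surface, had 422 reads in the KO-host library and 180 in the WT-host library, a ratio of 2.61 (2.19 to 3.13). These were the best covered of the higher genes in the group after Ifi44. Rtp4, which acts against flaviviruses, had 456 reads in the KO-host library and 101 in the WT-host library, a ratio of 5.03 (4.05 to 6.31). Its span in the file overlaps Masp1. Ifi27l2a, a small hydrophobic protein, had 369 reads for the KO host and 136 for the WT host, a ratio of 3.03 (2.48 to 3.71). Xaf1, a binding partner of the apoptosis inhibitor XIAP, had 362 reads for the KO host and 191 for the WT host, a ratio of 2.11 (1.77 to 2.53).

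Other effectors lay within 2-fold. Ddx60, an RNA helicase, had 832 reads in the KO-host library and 522 in the WT-host library, a ratio of 1.78 (1.59 to 1.99). Samd9l, which restrains growth and virus replication, had 2386 reads for the KO host and 2587 for the WT host, a ratio of 1.03 (0.972 to 1.09). Ifi35, which binds NMI, had 769 reads for the KO host and 825 for the WT host. Both of these were at nearly the same level in the 2 libraries. Sp100, a component of nuclear bodies, had 287.5 reads in the KO-host library and 434.8 in the WT-host library, a ratio of 0.737 (0.632 to 0.856), and its fractional reads leave the value uncertain.

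Irf7 and Cmpk2 were lower in the KO-host library. Irf7, the transcription factor that amplifies the type I interferon response, had 5 reads in the KO-host library and 99 in the WT-host library, which is 17.8-fold lower (7.36 to 55.9). Its span overlaps Phrf1, and its reads in the KO-host library are few. Cmpk2, a mitochondrial nucleotide kinase, had 17 reads for the KO host and 62 for the WT host, 3.27-fold lower (1.89 to 5.97), with under 100 reads in all. Cmpk2 lies 12.8 kb from Rsad2 on chromosome 12, on the opposite strand, and the ratios of these neighbours pointed in opposite directions. The 250 bases before the RefSeq starts of Cmpk2 and Irf7 are shown because these genes were lower, at chr12:26468965-26469214 on the plus strand and chr7:141266425-141266674 on the minus strand.
Cmpk2: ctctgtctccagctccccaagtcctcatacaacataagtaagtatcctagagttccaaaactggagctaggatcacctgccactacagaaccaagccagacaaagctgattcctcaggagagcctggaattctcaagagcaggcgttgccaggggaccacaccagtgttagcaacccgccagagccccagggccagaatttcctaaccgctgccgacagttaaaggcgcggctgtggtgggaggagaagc
Irf7: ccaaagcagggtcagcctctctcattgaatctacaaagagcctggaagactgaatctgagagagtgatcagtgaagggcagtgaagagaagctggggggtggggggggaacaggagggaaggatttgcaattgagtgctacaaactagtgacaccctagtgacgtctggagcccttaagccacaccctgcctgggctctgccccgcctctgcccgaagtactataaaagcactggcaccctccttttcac
Neither stretch holds the core searched, which says only that these letters are not in these windows.

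Over all the windows of 300 bases, 250 before and 50 after each start, 28 of the 37 genes were matched by symbol. The others were Usp18, Mx1, Mx2, Ifi27l2a, Parp9, Rtp4, Parp14, Oas2 and Parp10. The core of the interferon-stimulated response element was found in 14 of the 28 (50%), where 3.99% of 27025 symbols with a window held it. That share describes genes that were listed for their response to interferon. The 14 with a match had log2 ratios from −0.06 to 2.70 with a median of 1.06, and the 14 without had log2 ratios from −4.62 to 1.90 with a median of 0.05. Both sets hold genes with under 100 reads, such as Oas1g at 2.70 and Ifitm1 at −4.62. The genes without a window are in neither set, and they include Mx2, Oas2 and Mx1, which had the largest ratios of the 37. The difference between the sets was not tested. The gamma-activated site TTCNNNGAA was found in 5 of the 28 (17.9%) and in 9.55% of all symbols. It overlapped a match to the response element in Bst2 and Ifitm3. A match is a description of letters and not of binding.

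**Figure D4:**
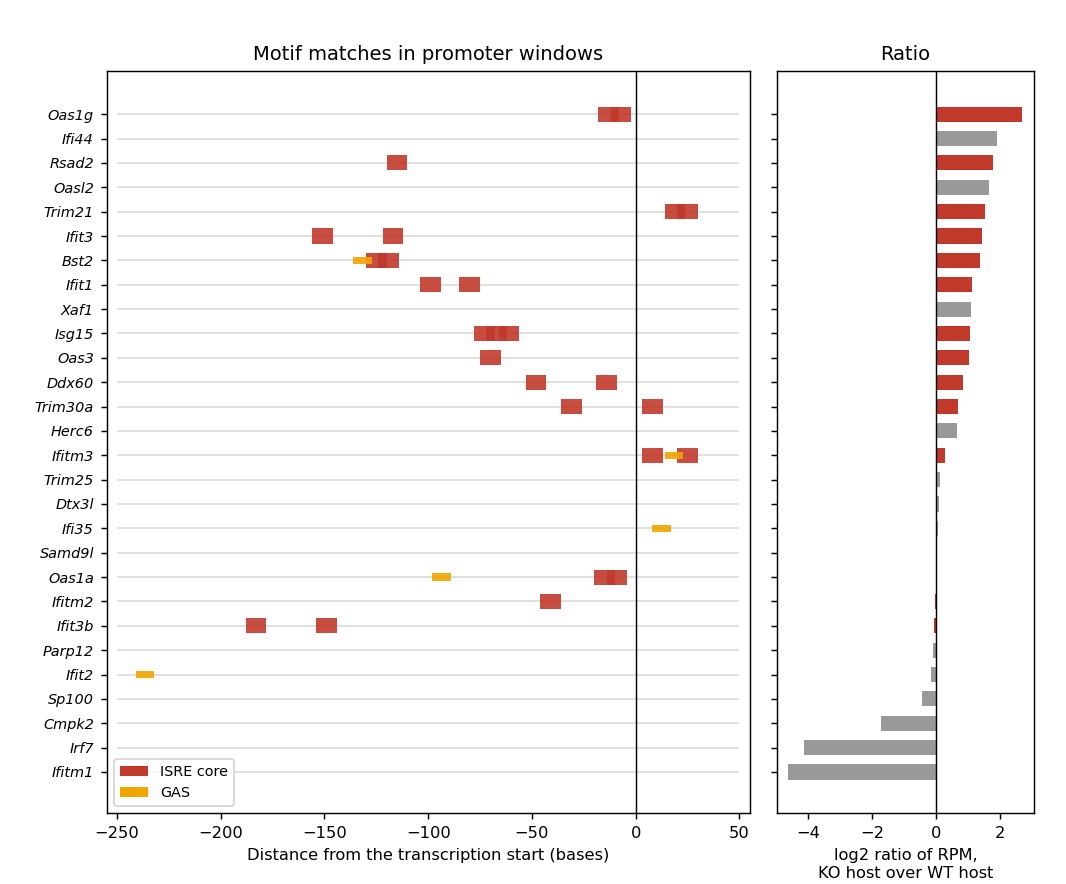
Left, positions of motif matches relative to the transcription start in bases for the 28 genes with a RefSeq window (red, response element core; orange, gamma-activated site), matches of all windows of a gene drawn together. Right, log2 ratio of RPM, KO host over WT host, in red where the core was found and grey where it was not. Matches lie mainly within 200 bases of the start, and Irf7, Ifitm1 and Cmpk2 at the bottom have none.

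Levels of different genes were compared per length of exon, as RPM per kb of exon. Ifitm3 was highest in both libraries, at 95.5 in the KO-host library and 79.3 in the WT-host library. Ifi27l2a was second in the KO-host library at 34.1 and stood at 11.3 in the WT-host library. Dtx3l was at 30.5 in the KO-host library and 28.8 in the WT-host library, and Trim25 at 28.7 and 26.2. In the KO-host library Ifitm2 came next at 26.9, followed by Ifit1 at 23.1, Bst2 at 20.0 and Usp18 at 19.9. Of these, Ifit1, Bst2 and Usp18 were 2-fold higher there. The most abundant effectors in that library thus held both genes that differed little and genes that were 2-fold higher. The lowest in the KO-host library was Irf7, at 0.057 there and 1.01 in the WT-host library. The exon length used for Irf7, 3.776 kb, equals its whole span, and its rank depends on that length. It had 5 reads there, while Ifitm1 had 2 and stood at 0.078. Mx2 was lowest in the WT-host library, at 0.021 there and 0.731 in the KO-host library.

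On the deposited scale, log2(FPKM + 1), the differences were smaller. Among the 18 genes with a mean of 1 or more, 3 differed by 1 or more towards the KO-host library and 0 towards the WT-host library, where 2.31% and 2.64% of the 6057 listed genes with such a mean did so. These were Ifi27l2a, at 3.51 in the KO-host library and 2.15 in the WT-host library, Ifi44, at 2.51 and 1.17, and Bst2, at 2.73 and 1.66. The median difference of the 18 was 0.53, where that of all genes passing was −0.03. The authors' FPKM divides by the genomic span with introns and the log adds 1, which shrinks the difference of genes at a low FPKM. Mx1, at 0.75 in the KO-host library and 0.071 in the WT-host library, differed by 0.67 on this scale while its RPM differed 13.3-fold.

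Genes upstream of the effectors were described from a list chosen by role. Of 12 interferon and related ligands 1 was listed, Il15, with 133 reads in the KO-host library and 118 in the WT-host library, and Ifnb1 and Ifng were not analysed here. Among receptors and signalling genes, 5 of 20 with 100 or more reads were 2-fold higher and 1 was lower, beside 8.4% higher and 11.3% lower among all genes of that depth. Stat2, a transcription factor of the type I pathway, had 663 reads in the KO-host library and 267 in the WT-host library, a ratio of 2.77 (2.40 to 3.20). Irf9, its partner, had 834 reads for the KO host and 455 for the WT host, a ratio of 2.04 (1.82 to 2.30). Irf8, with 86 reads in the KO-host library and 18 in the WT-host library, and Irf1, named after its values were seen, passed 2-fold too. Irf8 had under 50 reads in the WT-host library and passed the read filter mostly on the reads of the KO-host library. The receptor chains differed less or in the other direction. Ifnar1 had a ratio of 0.895 (0.831 to 0.963), Ifnar2 of 1.38 (1.22 to 1.56) and Ifngr1 of 0.820 (0.766 to 0.878), while Ifngr2 had 295 reads in the KO-host library and 875 in the WT-host library, 2.66-fold lower.

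Among the 17 sensors of RNA and DNA and their adaptors with 100 or more reads, 1 was 2-fold higher, Ifih1, and 2 were lower, Mavs and Ikbke. These shares are near those of all genes of that depth, 8.4% higher and 11.3% lower, so the counts are no result about the sensing genes. Ifih1, the sensor MDA5, had 378 reads in the KO-host library and 200 in the WT-host library. Mavs, the adaptor below it, had 271 reads for the KO host and 769 for the WT host, and the kinase gene Ikbke had 21 and 149. Ikbke had under 50 reads in the KO-host library and passed the read filter through the WT-host library. Ddx58, the gene for RIG-I, had a ratio of 1.07 (1.01 to 1.14), and Eif2ak2, the kinase PKR, had a ratio of 0.835 (0.771 to 0.904). The median log2 ratio of the sensing genes was 0.17.

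A list of genes associated with interferon gamma was set beside the antiviral effectors. It holds guanylate-binding proteins, immunity-related GTPases and antigen-processing genes, with Ciita, chemokines such as Cxcl10 and the checkpoint ligand Cd274. Of its 21 genes with 100 or more reads and a read in each library, 20 were 2-fold higher in the KO-host library and 0 were lower, with a median log2 ratio of 2.42, where 8.4% of all genes of that depth were higher and 11.3% lower. The antiviral effectors had 16 of 32 higher and a median of 0.99. Igtp, an immunity-related GTPase, had 3789 reads in the KO-host library and 82 in the WT-host library, and Gbp4, a guanylate-binding protein, had 1244 and 4. The span of Igtp overlaps that of Irgm2, and the span of Gbp4 overlaps those of Gbp8 and Gbp9, each on the same strand. The part of these neighbours in the reads of Igtp and Gbp4 was not tested. Gbp4, Gbp8 and Tgtp1 had under 50 reads in the WT-host library and passed the read filter through the KO-host library. Tgtp1 had the largest ratio, with 1351 reads in the KO-host library and 1.1 in the WT-host library, and is uncertain because of its near-identical copy Tgtp2. The 2 lists were not tested against each other, and the genes of each are not independent.

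**Figure D5:**
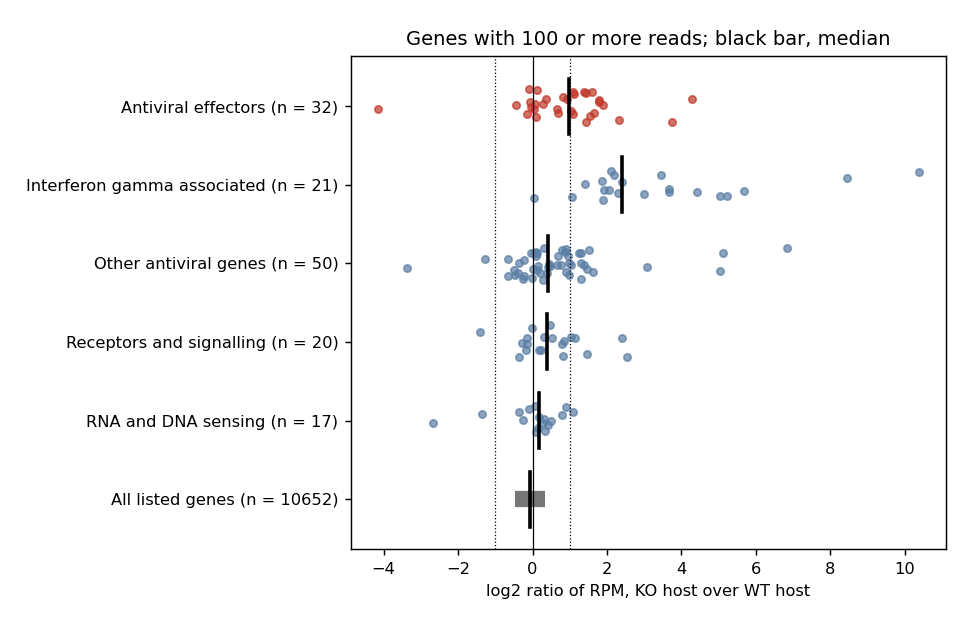
Log2 ratio of RPM, KO host over WT host, of each gene with 100 or more reads in the antiviral effectors (red) and in 4 other lists (blue), with black bars at the medians and a grey bar over the quartiles of all 10652 genes. Dotted lines mark 2-fold. The interferon gamma associated genes lie furthest right, with a median of 2.42, followed by the antiviral effectors at 0.99, while all genes have a median of −0.06.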

How the data were processed

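The 2 libraries were grouped by the host genotype in the labels. The authors deposited 1 table of log2 values, log2(FPKM + 1) per the file's name, with 1 column per library and 12707 protein-coding genes. The submitters' processing notes name STAR 2.7.8a, Partek and the build mm39. The sources used here do not give the annotation release, strand handling or duplicate treatment. The length column equals the genomic span of each gene, so FPKM values of genes with long introns are small, and the added 1 shrinks differences at low FPKM.

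Reads were recovered from the size of the step that 1 read makes in each library. Among values under 1000 reads, 83.4% for the KO host and 84.9% for the WT host were whole within 0.1 read, and the rest are fractions from shared reads. The lowest total of a listed gene was 10 reads. RPM is reads per 1000000 recovered reads. A ratio of 2-fold among genes with 100 or more reads, and a difference of 1 in the deposited log2 value where the mean was at least 1, were the size rules. No ratio was given under 0.5 read in a library. Recovery and ratios were tested on simulated data. Exon lengths came from a GRCm38 annotation and matched all 37 genes. Alternatives were the added constant, the read and level filters, median centring, quantile normalization, trimmed-mean (TMM) scaling computed directly, and genes with whole reads only. Python 3.11.15, numpy 2.4.6, pandas 2.3.3, scipy 1.17.1 and matplotlib 3.10.9 were used. Every listed effector was named, and from each other list the genes with the largest ratios and set pathway genes, some of which are not reported here. The members, lists and size rules were chosen with earlier results of these data known.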

Additional observations from a re-analysis of the deposited data

How the results depend on the processing

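No paired analysis was possible because each host has 1 library. On the deposited log2 scale the count of antiviral genes higher by 1 or more was 3. It was 9 with 0.1 added in place of 1, 0 with 5 added, and 0 among the 4 genes with a mean of 3 or more. The shares of all listed genes under these changed settings were not computed, so the counts describe the antiviral genes alone. The median difference of 0.53 was 0.70 with 0.1 added, 0.26 with 5 added, 0.21 with no filter on low values, 0.10 at a mean of 3 or more, and 0.79 over genes with whole reads only. A larger added constant makes each log2 difference smaller in size by arithmetic. The cause of the other shifts was not tested. For RPM ratios, the 16 genes 2-fold higher became 4 at 1000 or more reads, and the 1 lower gene became 3 at 10 or more reads, 0 at 1000 or more and 0 with 50 or more reads in each library, a filter chosen after the data were seen. The median log2 ratio of 0.99 was 0.52 at 1000 or more reads. At 1000 or more reads IFIT kept only 1 gene, Ifit1 at 1.11, and IFITM only 1, Ifitm3 at 0.27. The median was 0.22 over 4 genes of the PARP group and 0.41 over 2 TRIM genes, and OAS and MX gave no value. At 10 or more reads, where Ifitm1 enters, the IFITM median changed sign to −0.042, and with whole reads only the PARP median was 0.65 and MX gave no value. Centring changed the sign of Ifit3b and Ifitm2, both near 0, and TMM that of Ifitm2. Few reads limit Mx2, Oas1a, Oas1g, Ifitm1, Irf7 and Cmpk2.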

Other observations

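Of 50 further antiviral interferon-stimulated genes with 100 or more reads, 13 were 2-fold higher in the KO-host library and 2 were lower, where 8.4% of all genes of that depth were higher and 11.3% lower. Their median log2 ratio was 0.42. Of the 13, Oas1b, Phf11d, Slfn8 and Gm4951 had under 50 reads in the WT-host library and passed the read filter through the KO-host library. Ifi30, with 98 reads in the KO-host library and 44 in the WT-host library, passed it only on the sum. Slfn8 had 422 reads in the KO-host library and 14.3 in the WT-host library. Phf11d had 250 and 8 reads in the same order, and Oas1b 102 and 1. These 3 had the largest ratios of the list. Of genes named after their values were seen, Helz2, a helicase-containing coactivator, had 2145 reads for the KO host and 1008 for the WT host. Uba7, the enzyme that activates ISG15, had 407 reads in the KO-host library and 159 in the WT-host library, a ratio of 2.85 (2.37 to 3.45). The 2 lower genes, also named after their values were seen, were Mitd1 and Tent5a. Mitd1 had 11 reads for the KO host and 128 for the WT host, and Tent5a had 638 and 1710. Mitd1 had under 50 reads in the KO-host library and passed the read filter through the WT-host library.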
